A study of Mus musculus with 48 samples.

Results

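The interstitial collagens followed here are 10 genes for collagen chains of the connective tissue matrix outside basement membranes, chosen by their Ensembl identifiers from the 42548 genes of a mouse lung count table. All 10 had counts in every library. The rule used no measured value, although the genes were proposed with earlier results of these data known. The mice carried the RiboTag, an HA-tagged ribosomal protein, and per the labels RNA was recovered with an anti-HA antibody. Every one of 24 mice was sampled as epithelium and as whole lung, which made 48 libraries.

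There were 4 arms, spread over batches that the labels call S061, S135 and S151. Mice given bleomycin, a drug that injures the lung and causes fibrosis in mice, received KIRA8 (5 mice, 3 in S061 and 2 in S135), 3G9 (4 mice, all in S151) or a control treatment (9 mice, 3 in S061, 2 in S135 and 4 in S151). Mice given saline received the control treatment (6 mice, 3 in S135 and 3 in S151). KIRA8 is a small-molecule inhibitor of IRE1α, a stress sensor of the endoplasmic reticulum, and 3G9 is an antibody against integrin αvβ6, which activates latent TGFβ. The control treatment was labelled Vehicle in S061 and S135 and Axum8 in S151, so the kind of control cannot be told apart from the batch. Both sexes were present in each batch. The strain, age, doses, times, the Cre driver of the tag and the way whole lung libraries differed in preparation are not stated in the material used here.

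Collagens are secreted as triple helices of 3 chains and assembled outside the cell. In lung, fibroblasts and related mesenchymal cells make most of the fibrillar collagen, and its build-up is the hallmark of fibrosis. TGFβ is a classical inducer of these genes. The libraries were made from the 3′ ends of transcripts, so a count reflects transcripts and not their length, and values are given as CPM, the count of a gene scaled to the total count of its library. Levels are compared between libraries for 1 gene at a time and not between genes.

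The fibrillar members make the load-bearing fibrils. Col1a1 (ENSMUSG00000001506, chr11:94936224-94953042) and Col1a2 (ENSMUSG00000029661, chr6:4505618-4541543) encode the chains of type I collagen, the main fibre of scars. Col3a1 (ENSMUSG00000026043, chr1:45311538-45349706) encodes type III collagen, which joins type I in thin reticular fibres. Col5a1 (ENSMUSG00000026837, chr2:27886381-28039510) and Col5a2 (ENSMUSG00000026042, chr1:45374331-45503282) encode chains of type V collagen, which nucleates fibrils and limits their width. Col6a1 (ENSMUSG00000001119, chr10:76708792-76726044) and Col6a3 (ENSMUSG00000048126, chr1:90766860-90844001) encode chains of type VI collagen, which forms beaded microfibrils around cells. Col12a1 (ENSMUSG00000032332, chr9:79598987-79721141) and Col14a1 (ENSMUSG00000022371, chr15:55307644-55520803) encode collagens that sit on the surface of fibrils. Col15a1 (ENSMUSG00000028339, chr4:47207655-47313167) encodes a multiplexin that lies next to basement membranes. Gene positions are those of RefSeq on GRCm38.p6.

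RefSeq promoters, 300 bases from 250 before to 50 after the annotated start on GRCm38.p6, were at hand for 6 of the 10 genes. Those of 3 fibrillar members whose RNA rose together in whole lung are shown, on the plus strand of chr6:4505368-4505667 (Col1a2), chr1:45311288-45311587 (Col3a1) and chr2:27886175-27886474 (Col5a1). Capitals mark 4 motifs on either strand. The CCAAT box has the letters CCAAT. The TATA box was searched as TATAAA. The GC box, bound by Sp1, was searched as GGGCGG. The core of the element bound by SMAD proteins, which carry the TGFβ signal to DNA, was searched as CAGAC. None of the marked matches overlap.
Col1a2: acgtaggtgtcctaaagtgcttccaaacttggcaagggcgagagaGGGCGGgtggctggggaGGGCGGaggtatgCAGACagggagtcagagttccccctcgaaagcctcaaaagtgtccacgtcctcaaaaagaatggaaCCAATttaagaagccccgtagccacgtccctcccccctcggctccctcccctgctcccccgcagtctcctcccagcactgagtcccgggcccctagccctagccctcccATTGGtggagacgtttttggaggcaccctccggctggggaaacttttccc
Col3a1: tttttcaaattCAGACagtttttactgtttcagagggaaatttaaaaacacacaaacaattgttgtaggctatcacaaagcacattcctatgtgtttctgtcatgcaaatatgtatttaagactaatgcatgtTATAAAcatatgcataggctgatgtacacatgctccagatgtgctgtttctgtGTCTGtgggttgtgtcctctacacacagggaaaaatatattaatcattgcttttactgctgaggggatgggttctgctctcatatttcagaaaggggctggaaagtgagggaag
Col5a1: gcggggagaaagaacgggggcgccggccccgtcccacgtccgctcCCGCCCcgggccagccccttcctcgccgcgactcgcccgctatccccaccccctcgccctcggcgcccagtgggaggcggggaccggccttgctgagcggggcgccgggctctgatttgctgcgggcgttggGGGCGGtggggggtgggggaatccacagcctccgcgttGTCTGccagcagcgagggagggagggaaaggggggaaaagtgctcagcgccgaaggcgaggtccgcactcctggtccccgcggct
The 3 windows share little base composition. G and C make up 61% of the Col1a2 window, 37.7% of that of Col3a1 and 75.0% of that of Col5a1, against a median of 52.7% over 32851 promoters. CAGAC was present in 5 of the 6 windows at hand, all but that of Col6a1, and in 49.6% of all promoters. CCAAT was present in 1 of the 6, that of Col1a2 (37.4% of all promoters), and TATAAA also in 1, that of Col3a1 (13.6%). GGGCGG was present in the windows of Col1a2 and Col5a1 (35.7% of all promoters). The matches describe letters and are no evidence of binding.

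Total counts ran from 7163613 to 51797377 per library and were lowest in S135. The 10 collagens together held 0.0813% to 0.443% of the counts of a whole lung library and 0.00621% to 0.0849% of those of an epithelial library. Cell type markers could not be looked up, because the files do not pair identifiers with symbols, so the labelled compartments were not checked against markers. To describe what else the libraries held, the counts of 1337 other genes were summed, chosen because saline mice had at least 8-fold less of them in epithelium than in whole lung (epithelium-depleted genes). They held 7.64% to 16.9% of whole lung counts. In epithelial libraries they held 0.248% to 0.897% in S135 and S151, against 5.02% to 10.3% in S061. Of these genes, the 6 with most counts in S061 epithelial libraries, picked after their values were seen, held 3.67% to 7.83% of all counts there, against 0.0294% to 0.229% in epithelial libraries of the other batches. In whole lung libraries the same 6 genes held 6.71% to 7.95% in S061, 8.15% to 10.1% in S135 and 1.31% to 2.58% in S151. A further set of 146 genes was limited to S061, with at least 50 CPM in each S061 library and a median under 0.5 CPM over the others, and 2 of them were also epithelium-depleted. This set held 6.01% to 12.7% of epithelial and 7.21% to 9.81% of whole lung counts in S061, against at most 0.0529% and 0.846% in the other batches. In S061 epithelium both sums were lowest in bleomycin control mouse 45 and highest in KIRA8 mouse 20, and how much of the epithelium-depleted sum there is RNA of other lung cells was not tested. The batches differ in what the libraries hold, and arms are compared within batches or with batch in the fit. The labels name separate mice, so the spread between libraries of an arm is between animals.

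Bleomycin against saline in whole lung asked whether the injury raised collagen RNA. All 5 fibrillar members rose, by 1.96-fold to 2.33-fold in the batch-adjusted edgeR fit, and Col6a3 and Col15a1 rose by 1.49-fold and 1.74-fold. In all, 7 of the 10 members were higher at an adjusted p under 0.05 and none lower, where 6.01% of the 19345 genes tested were higher and 4.14% lower. The members' log2 fold changes had a median of 0.89, against -0.01 over all genes tested. Col6a1, Col12a1 and Col14a1 did not pass.

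Col1a1 stood at 409 and 861 CPM in bleomycin control mice of S135, against 265, 265 and 301 CPM in saline mice of that batch. In S151 it stood at 474, 634, 771 and 781 CPM in bleomycin control mice, against 143, 213 and 435 CPM in saline mice. Every bleomycin control mouse lay above every saline mouse of its batch, and the bleomycin control mice of S061, a batch with no saline mice, lay in the same range, at 634 to 860 CPM. The log2 fold change was 1.13 ± 0.23 (SE), with an adjusted p of 0.00378 (edgeR).

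Col1a2, the partner chain, stood at 1132 and 2184 CPM in bleomycin control mice of S135, against 580, 678 and 690 CPM in saline mice. In S151 the values were 452, 556, 648 and 742 CPM in bleomycin control mice and 211, 234 and 438 CPM in saline mice. The groups did not overlap in either batch, although the levels of Col1a2 in S135 were above those in S151 in every arm that both batches hold. The batch-adjusted log2 fold change was 1.0 ± 0.22 (SE), and the adjusted p was 0.00555 (edgeR).

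Col3a1 stood at 318 and 734 CPM in bleomycin control mice of S135 and at 166, 167 and 185 CPM in saline mice. In S151 it stood at 282, 404, 499 and 636 CPM in bleomycin control mice and at 105, 132 and 364 CPM in saline mice. Here the groups of S151 overlapped, through saline mouse 230 at 364 CPM and bleomycin control mouse 206 at 282 CPM. With a log2 fold change of 1.17 ± 0.26 (SE), its adjusted p was 0.00644 (edgeR).

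The type V chains moved like type I. Col5a1 stood at 29.5 and 65.8 CPM in bleomycin control mice of S135 and at 18.5 to 25.6 CPM in saline mice, and in S151 at 82.7 to 141 CPM in bleomycin control mice and at 40.1 to 62.7 CPM in saline mice. On the log2 scale the fold change was 0.97 ± 0.19 (SE), with an adjusted p of 0.0032 (edgeR). Col5a2 stood at 50.5 and 125 CPM in bleomycin control mice of S135 and at 26.9, 30.6 and 30.7 CPM in saline mice. In S151 it stood at 71.3, 97.1, 122 and 127 CPM in bleomycin control mice and at 30.2, 38.1 and 62.7 CPM in saline mice. Neither type V chain overlapped between the arms in either batch. Col5a2 had the smallest adjusted p of the members, 0.00092 (edgeR), with a log2 fold change of 1.22 ± 0.21 (SE).

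Of the type VI chains Col6a3 passed and Col6a1 did not. Col6a3 stood at 137 and 242 CPM in bleomycin control mice of S135, against 90.9 to 106 CPM in saline mice, and at 125 to 154 CPM in bleomycin control mice of S151, against 87.6 to 109 CPM in saline mice. Its groups did not overlap either, and the log2 fold change was 0.58 ± 0.17 (SE, adjusted p 0.0286, edgeR). Col6a1 stood at 77.9 and 132 CPM in bleomycin control mice and 54.8 to 73.0 CPM in saline mice of S135, and at 226 to 375 CPM in bleomycin control mice and 139 to 271 CPM in saline mice of S151. Its log2 fold change of 0.50 ± 0.17 (SE) missed the threshold (adjusted p 0.0603, edgeR). Col6a1 did pass with DESeq2 (adjusted p 0.0333) and with sex as a term (adjusted p 0.0449, edgeR).

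The remaining members divided. Col15a1 stood at 4.69 and 13.5 CPM in bleomycin control mice of S135, against 3.66, 5.64 and 8.27 CPM in saline mice, and these overlapped. In S151 it stood at 29.6, 31.5, 31.9 and 38.6 CPM in bleomycin control mice and at 11.5, 11.6 and 15.2 CPM in saline mice, without overlap. The rise was 0.80 ± 0.22 (SE) on the log2 scale (adjusted p 0.0258, edgeR). Col12a1 stood at 18.2 and 27.9 CPM in bleomycin control mice of S135 and 15.3 to 23.9 CPM in saline mice, and at 30.0 to 37.4 CPM in bleomycin control mice and 17.3 to 33.3 CPM in saline mice of S151. Its log2 fold change of 0.27 ± 0.21 (SE) had an adjusted p of 0.455 (edgeR). Col14a1 stood at 36.5 and 54.0 CPM in bleomycin control mice and 39.9 to 47.6 CPM in saline mice of S135, and at 22.9 to 29.0 CPM in bleomycin control mice and 22.2 to 28.8 CPM in saline mice of S151. Its log2 fold change was -0.15 ± 0.12 (SE), and its 95% interval ran from -0.40 to 0.09.

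Within S135, 7 members lay without overlap above saline, where 16.8% of genes tested did, and within S151 6 members did, where 16.4% did. The fibrillar 5 passed in 15 of 15 fits that each left out 1 mouse of these arms, while Col6a3 was lost in 5 of them and Col15a1 in 6, and the count of members that passed ran from 5 to 8. The epithelium-depleted genes held 14.8% and 16.9% of whole lung counts in bleomycin control mice of S135, against 14.9% to 16.1% in saline mice, and 7.79% to 9.64% in bleomycin control mice of S151, against 7.64% to 10.1% in saline mice, so the ranges overlapped. Of the whole lung counts of S135, 8.15% to 10.1% came from only 6 of the epithelium-depleted genes. In these bulk samples more collagen-making cells and more RNA per cell cannot be told apart.

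**Figure D1:**
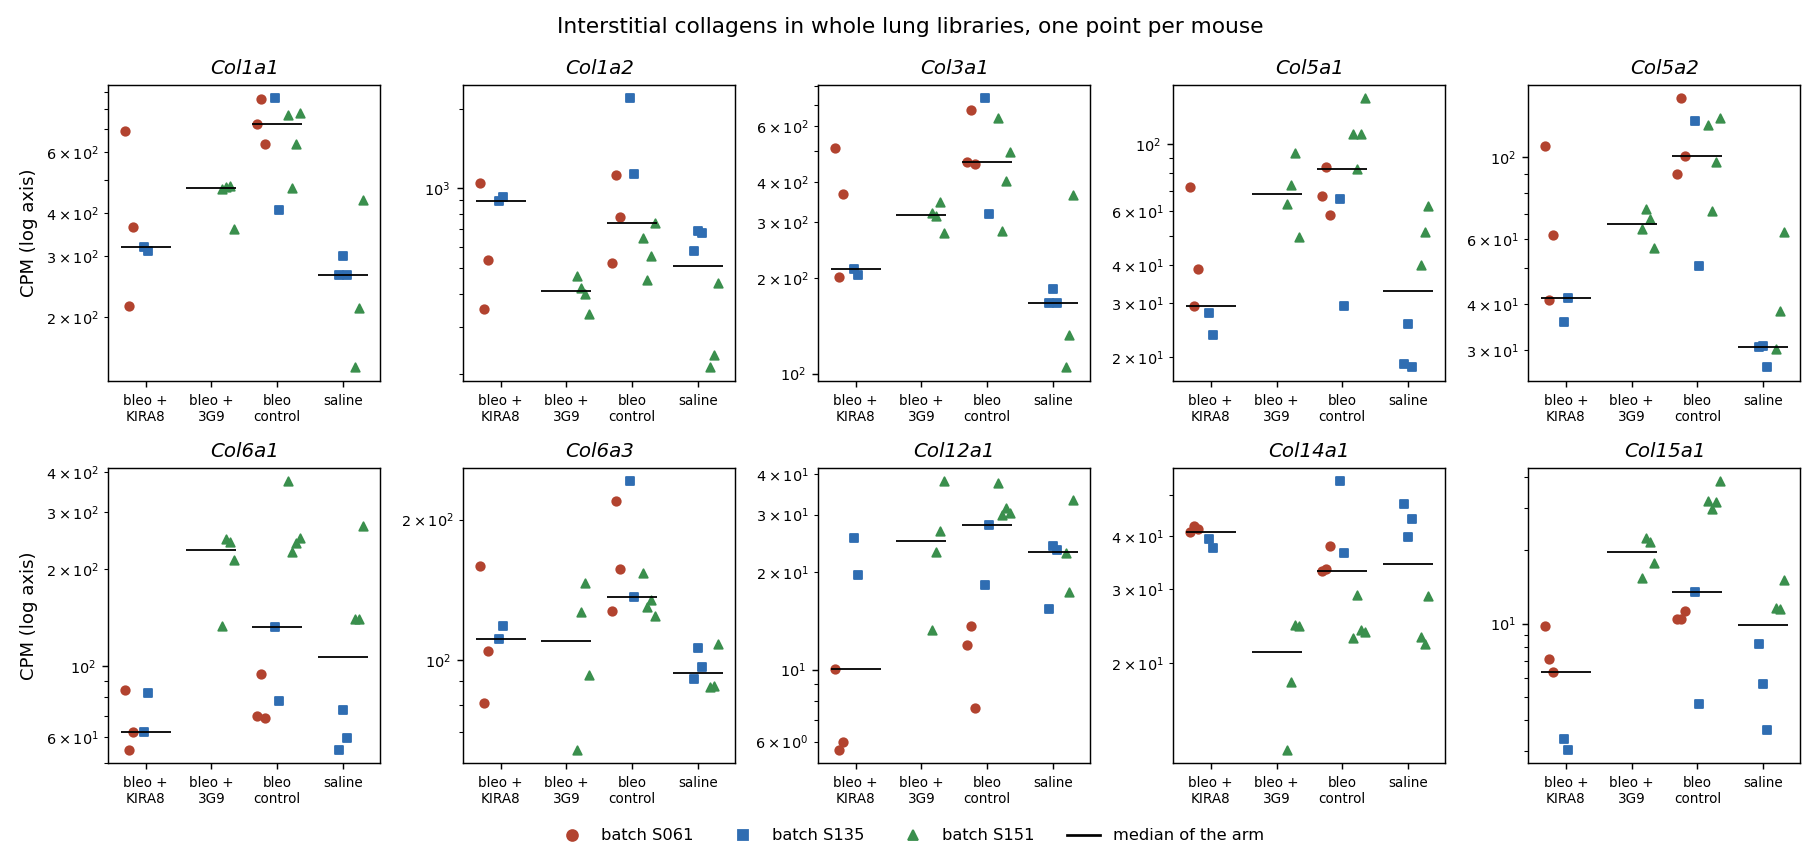
Level of each of the 10 collagens in whole lung libraries, 1 panel per gene, in CPM on a log axis. Each point is 1 mouse, with the arms side by side, colour and shape for the batch and horizontal bars at the median of the arm over batches. In S151 the 4 bleomycin control mice had 71.3 to 127 CPM of Col5a2, above the 3 saline mice at 30.2 to 62.7 CPM, while Col14a1 overlapped.

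KIRA8 against the bleomycin control in whole lung asked whether inhibiting IRE1α changed collagen RNA after injury. No member passed in the edgeR fit, where 0.212% of genes tested were lower and 0.315% higher. The fitted values of 9 of 10 members were below 0, with a median log2 fold change of -0.64, against -0.01 over all genes tested. For 7 members the unadjusted p was under 0.05, as it was for 15.4% of genes tested, and the smallest adjusted p was 0.0657, for Col15a1 (edgeR). DESeq2, run on the same counts as an alternative, called 5 members lower, namely Col1a1, Col3a1, Col5a1, Col5a2 and Col15a1, where it called 1.45% of genes tested lower.

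Col1a1 stood at 214, 364 and 694 CPM in KIRA8 mice of S061, against 634, 725 and 860 CPM in bleomycin control mice. In S135 it stood at 311 and 319 CPM in KIRA8 mice, against 409 and 861 CPM in bleomycin control mice. The S061 groups overlapped through KIRA8 mouse 20, at 694 CPM, which was the highest KIRA8 mouse of its batch for 9 of the 10 genes in whole lung, all but Col14a1. On the log2 scale the fold change of Col1a1 was -0.93 ± 0.25 (SE), with an adjusted p of 0.0756 (edgeR), and the 95% interval, not adjusted for multiple genes, ran from -1.42 to -0.44.

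Within a single batch, 6.97% of genes tested lay lower without overlap in S061 and 18.4% in S135, and how many did so in both was not counted. Among the members only Col15a1 did so in both. It stood at 6.33, 7.17 and 9.81 CPM in KIRA8 mice of S061, against 10.4, 10.5 and 11.3 CPM in bleomycin control mice, and at 3.02 and 3.35 CPM in KIRA8 mice of S135, against 4.69 and 13.5 CPM in bleomycin control mice. On the log2 scale this was -0.98 ± 0.25 (SE). Col5a2 stood at 41.0, 61.6 and 107 CPM in KIRA8 mice of S061, against 90.1, 101 and 144 CPM in bleomycin control mice, and at 35.8 and 41.6 CPM in KIRA8 mice of S135, against 50.5 and 125 CPM in bleomycin control mice. For Col5a2 the log2 fold change was -0.86 ± 0.23 (SE), and the adjusted p was 0.072 (edgeR).

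The other fibrillar chains and type VI had smaller or less even values. Col3a1 had a log2 fold change of -0.85 ± 0.28, Col5a1 of -0.71 ± 0.21, Col1a2 of -0.53 ± 0.23 and Col6a3 of -0.57 ± 0.18 (SE each). Col6a1, at -0.33 ± 0.18, and Col12a1, at -0.41 ± 0.23 (SE each), were closer to 0. Col14a1 again stood apart, at 41.0 to 42.2 CPM in KIRA8 mice of S061, above the 33.0 to 37.8 CPM of bleomycin control mice, and at 37.4 and 39.3 CPM in KIRA8 mice of S135, against 36.5 and 54.0 CPM in bleomycin control mice. Within S135, 7 members lay without overlap below the bleomycin control, where 18.4% of genes tested did, and within S061 only Col15a1 did, where 6.97% did. Leaving out KIRA8 mouse 20 brought the count of members called lower to 4, and leaving out bleomycin control mouse 149 brought it to 3. The share of all genes called lower in those fits is not given here, so neither count can be set against it. The count over all genes in either direction was itself unstable, at 102 in the main fit, 3 without S061 and 22 with only the 2 arms. The epithelium-depleted genes held 12.4% to 13.9% of whole lung counts in KIRA8 mice of S061, against 12.1% to 12.9% in bleomycin control mice, and 15.4% in both KIRA8 mice of S135, against 14.8% and 16.9% in bleomycin control mice.

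3G9 against the bleomycin control in whole lung asked the same of blocking integrin αvβ6. All 3G9 mice were in S151, while the fit, with a term for batch, covered the 24 libraries of all batches. No member passed (edgeR; 0.031% of genes tested were lower, 0.165% higher), and the smallest adjusted p was 0.419. All 10 fitted log2 fold changes were below 0, from -0.69 to -0.28, with a median of -0.53 against -0.01 over all genes tested, and 4 members had an unadjusted p under 0.05, as did 6.94% of genes tested. DESeq2 called none of the members, where it called 1.38% of genes tested.

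Col5a2 stood at 56.5, 63.6, 67.8 and 72.3 CPM in 3G9 mice, against 71.3, 97.1, 122 and 127 CPM in bleomycin control mice. The groups overlapped through bleomycin control mouse 206, which had the lowest Col1a1, Col1a2, Col3a1, Col5a1, Col5a2, Col6a1, Col12a1 and Col15a1 of its arm in S151. Col5a2 had a log2 fold change of -0.69 ± 0.25 (SE). Col15a1 stood at 15.4, 17.8, 21.7 and 22.5 CPM in 3G9 mice, against 29.6, 31.5, 31.9 and 38.6 CPM in bleomycin control mice. It was the only member without overlap, where 2.4% of genes tested lay below in this way, and its log2 fold change was -0.57 ± 0.25 (SE, adjusted p 0.653, edgeR). Col1a1 stood at 360, 468, 478 and 480 CPM in 3G9 mice, against 474, 634, 771 and 781 CPM in bleomycin control mice, with a log2 fold change of -0.51 ± 0.27 (SE) and a 95% interval from -1.05 to 0.02.

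Set against saline, neither treated arm had a member past the threshold in whole lung (edgeR). For KIRA8, 0.258% of genes tested passed in either direction, and the members' log2 fold changes had a median of 0.18. For 3G9, 10.4% of genes tested passed in either direction, and the members had a median of 0.29. Col1a1 stood at 311 and 319 CPM in KIRA8 mice of S135, against 265 to 301 CPM in saline mice, and at 360 to 480 CPM in 3G9 mice of S151, against 143 to 435 CPM in saline mice. The 95% intervals still reach a sizeable rise: for Col1a1 from -0.35 to 0.76 on the log2 scale for KIRA8 and from 0.07 to 1.18 for 3G9, not adjusted for multiple genes. Col14a1 was the member of lowest value in 3G9 mice relative to saline, at -0.43 ± 0.16 (SE, adjusted p 0.0791, edgeR), and DESeq2 called 1 member lower here, where it called 7.06% of genes tested lower.

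**Figure D2:**
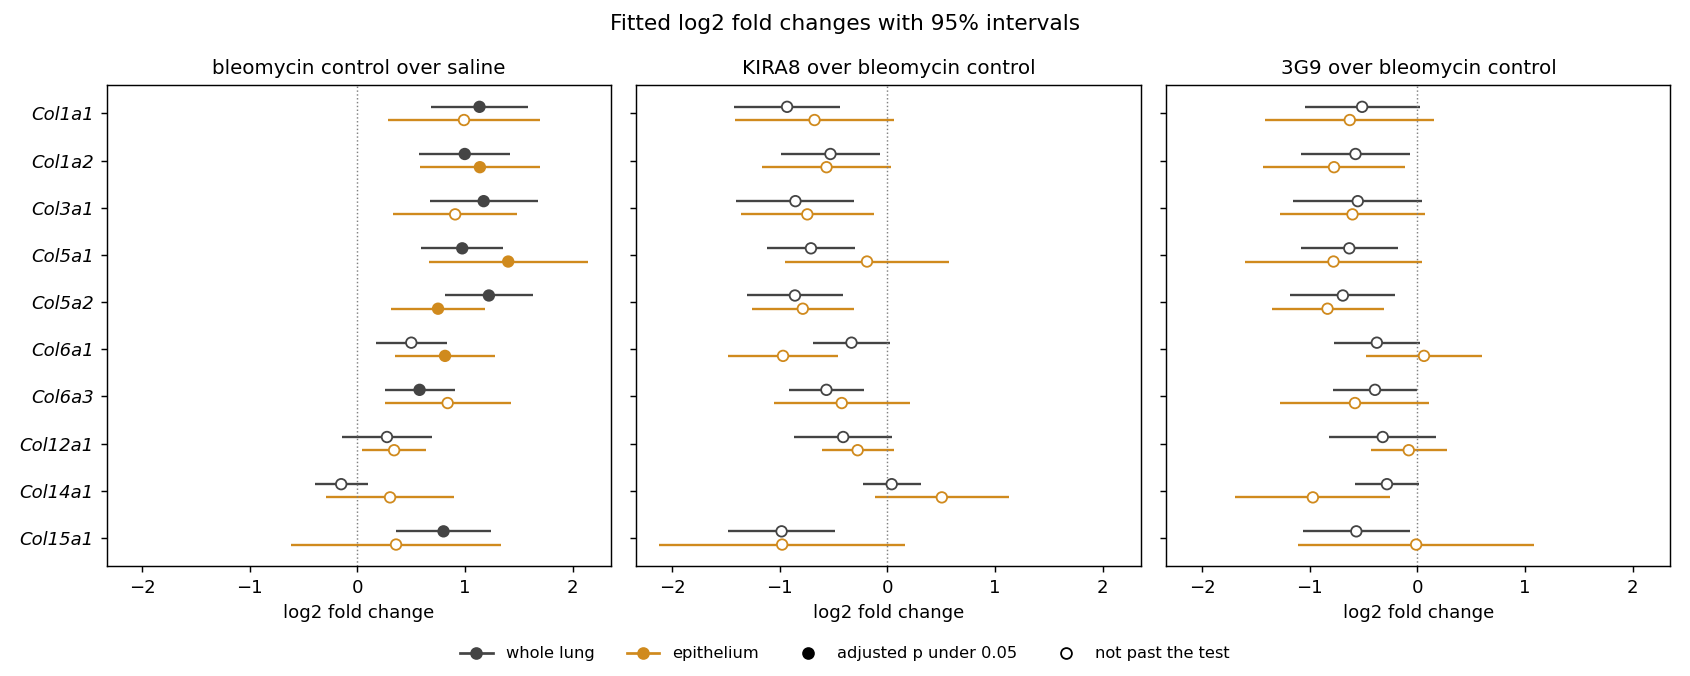
Batch-adjusted log2 fold change of each collagen for bleomycin control against saline, KIRA8 against bleomycin control and 3G9 against bleomycin control, in whole lung and in epithelium. Points are edgeR estimates, bars are 95% intervals not adjusted for multiple genes, and filled points have an adjusted p under 0.05. In whole lung 7 genes are filled for bleomycin control against saline and none for the treatments, whose points lie mostly below 0.

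Epithelial libraries held far less of most members. In saline mice, 8 of 10 members were lower in epithelium than in the whole lung sample of the same mouse (edgeR with the mouse as a block), where 30.3% of 14885 genes tested were lower. In bleomycin control mice 9 were lower, where also 30.3% were. Col6a3 had a log2 difference of -3.36 ± 0.22 (SE) in saline mice and -3.20 ± 0.18 (SE) in bleomycin control mice, and Col1a2 of -2.85 ± 0.24 and -3.14 ± 0.24 (SE). Col6a1 was closer to 0, at -1.29 ± 0.12 in saline mice and -0.81 ± 0.17 in bleomycin control mice (SE).

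Col12a1 was the exception, and it differed by batch. In the fit of saline mice with TMM scaling it was higher in epithelium, at 0.52 ± 0.20 (SE, adjusted p 0.0383, edgeR). There 27.3% of genes tested were higher. In S135 saline mice it stood at 23.3, 25.9 and 33.9 CPM in epithelial libraries, against 15.3, 23.4 and 23.9 CPM in whole lung, while in S151 it stood at 10.8, 12.2 and 15.8 CPM in epithelial libraries, against 17.3, 22.8 and 33.3 CPM in whole lung. The CPM ratios of epithelium to whole lung, without TMM, were 0.973 to 1.69 in S135 and 0.473 to 0.707 in S151. With S135 alone the log2 difference was 0.91, with S151 alone 0.06, and the call was lost in 4 of the 6 fits that each left out 1 mouse. The call was also lost with RLE in place of TMM factors (edgeR, adjusted p 0.0695) and with DESeq2 (adjusted p 0.058). Without the low-count filter it was lost too (edgeR, adjusted p 0.0612). In bleomycin control mice Col12a1 did not pass (0.24 ± 0.24, SE).

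Col1a1 in epithelium stood apart in S135, and other fibrillar members did so by less. Its level was 201 to 372 CPM in the epithelial libraries of all 7 mice of S135, whatever the arm, against 6.32 to 81.7 CPM in those of the 17 mice of the other batches. The ratio of epithelial to whole lung CPM of the same mouse was 0.375 to 1.20 in S135, against 0.024 to 0.129 in the other batches. Col3a1 had ratios of 0.142 to 0.313 in S135, against 0.0316 to 0.123 in the other batches, and Col5a2 of 0.188 to 0.312 in S135, against 0.0678 to 0.180, so neither overlapped. Col1a2 overlapped, with 0.11 to 0.188 in S135, against 0.0308 to 0.140 in the other batches. The epithelium-depleted genes had ratios of 0.0306 to 0.0593 in S135. The Col1a1 to Col1a2 ratio of counts was 1.13 to 3.26 in S135 epithelial libraries, against 0.337 to 0.456 in the matched whole lung samples, while in S151 it was 0.617 to 1.40 in epithelium and 0.676 to 1.21 in whole lung. In the comparison of compartments in saline mice, Col1a1 did not pass (-1.49 ± 0.81, SE, adjusted p 0.148, edgeR). With S151 alone the log2 difference was -3.56, and with S135 alone it was 0.35. That sign comes with the TMM scaling, since the unscaled CPM ratios of epithelium to whole lung in those 3 saline mice were 0.818, 0.861 and 1.04. In bleomycin control mice the log2 difference was -3.84 in S061 alone, -0.55 in S135 alone and -3.31 in S151 alone. S135 also had the lowest total counts, and the part of the batch's preparation in this was not tested.

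Col14a1 stood apart in S061 instead. Its level in epithelial libraries was 26.7, 31.6 and 32.5 CPM in KIRA8 mice and 17.3, 23.4 and 26.7 CPM in bleomycin control mice of S061, against 0.815 to 6.40 CPM in all mice of the other batches. The ratio of epithelial to whole lung CPM was 0.457 to 0.798 in S061 for Col14a1 and 0.388 to 0.830 for the summed epithelium-depleted genes. That sum held 5.02% to 10.3% of epithelial and 12.1% to 13.9% of whole lung counts in S061. Its 6 genes with most counts in S061 epithelium held 3.67% to 7.83% and 6.71% to 7.95%, so they weigh heavily in its ratio. Col1a1, Col1a2, Col3a1, Col5a1, Col5a2 and Col6a3 had ratios of only 0.0374 to 0.133 in those 6 mice, and Col15a1 of 0.0951 to 0.196. Col6a1, at 0.227 to 0.853, and Col12a1, at 0.350 to 1.14, reached ratios as high as Col14a1 there. In the other batches Col6a1 had ratios of 0.149 to 0.917 and Col12a1 of 0.473 to 2.20. The 146 genes limited to S061 were present in both compartments of the same mice, and whether Col14a1 went with them or with RNA of other lung cells was not tested.

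**Figure D3:**
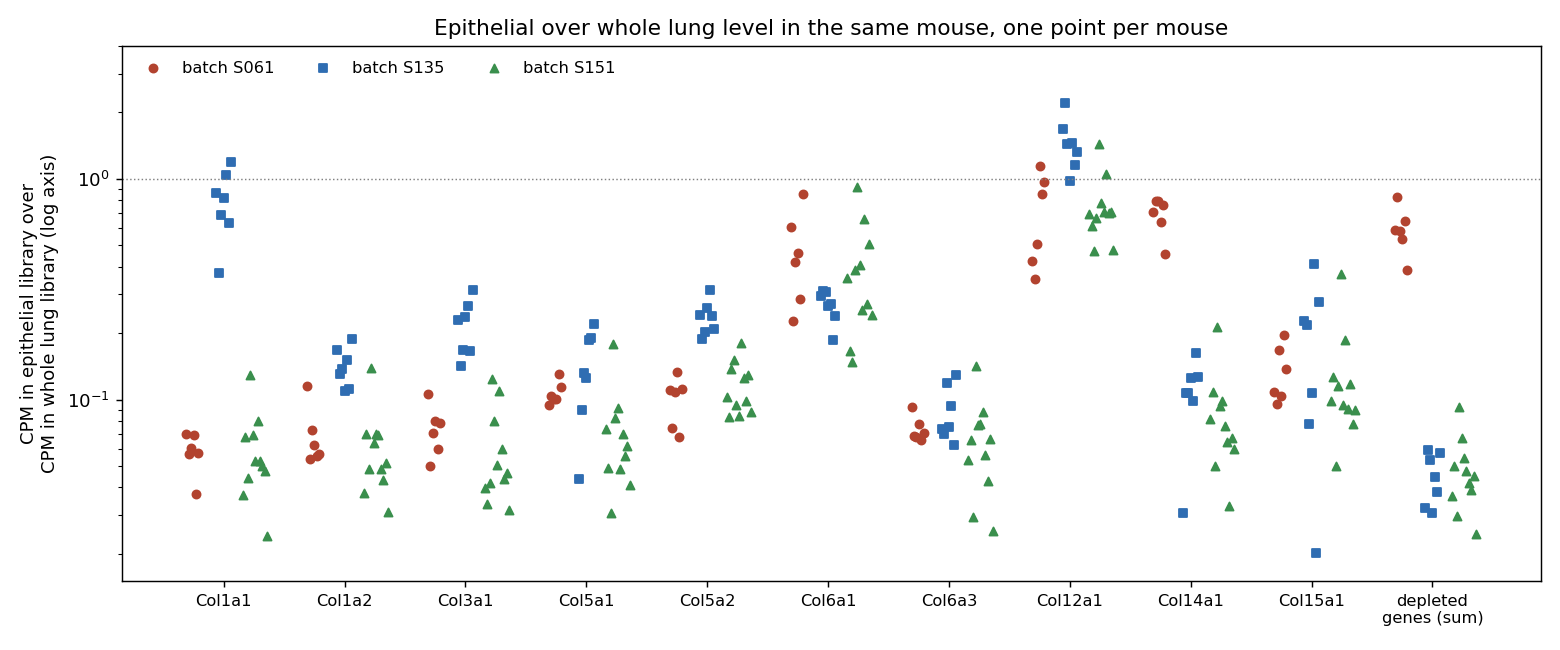
Ratio of epithelial to whole lung CPM of the same mouse for each collagen and for the summed epithelium-depleted genes, on a log axis, 1 point per mouse, coloured by batch. Col1a1 lies at 0.375 to 1.20 in S135 and at most 0.129 in the other batches, and Col14a1 and the epithelium-depleted genes lie highest in S061.

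Bleomycin against saline in epithelium gave 4 members higher and none lower (edgeR), where 4.55% of 17291 genes tested were higher and 4.17% lower. These were Col1a2, Col5a1, Col5a2 and Col6a1, and all 10 fitted values were above 0, with a median log2 fold change of 0.83 against 0.00 over all genes tested. Col1a2 stood at 156 and 287 CPM in bleomycin control mice of S135, against 75.6, 97.1 and 102 CPM in saline mice, and at 24.6, 31.8, 35.9 and 77.7 CPM in bleomycin control mice of S151, against 10.2, 13.5 and 16.2 CPM in saline mice. The groups did not overlap in either batch, and the log2 fold change was 1.14 ± 0.28 (SE, adjusted p 0.0131, edgeR).

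Col5a1 stood at 3.87 and 5.92 CPM in bleomycin control mice of S135, against 0.833, 3.19 and 3.45 CPM in saline mice, and at 4.04, 7.94, 9.81 and 19.2 CPM in bleomycin control mice of S151, against 1.23, 2.5 and 2.57 CPM in saline mice. These low levels did not overlap either, and the log2 fold change was 1.40 ± 0.38 (SE, adjusted p 0.0183, edgeR). Col5a2 and Col6a1 had log2 fold changes of 0.75 ± 0.22 and 0.81 ± 0.24 (SE each), with adjusted p of 0.0327 and 0.0322 (edgeR). Each overlapped in S151 through bleomycin control mouse 206, at 5.98 CPM of Col5a2 and 37.3 CPM of Col6a1, against saline mice at up to 6.86 and 65.7 CPM.

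Members that missed the threshold were Col1a1, at 0.99 ± 0.36 (SE, adjusted p 0.0926, edgeR), Col3a1, at 0.91 ± 0.29, and Col6a3, at 0.84 ± 0.30 (SE). For Col1a1 the batches differed in size. In S135 it stood at 280 and 323 CPM in bleomycin control mice, against 228, 246 and 276 CPM in saline mice, and in S151 at 28.4, 32.2, 41.2 and 81.7 CPM in bleomycin control mice, against 6.32, 10.4 and 17.1 CPM in saline mice. The mean CPM was 1.21-fold higher in S135 and 4.06-fold higher in S151. With TMM scaling, the difference in mean log2 CPM was 0.03 in S135 and 1.49 in S151. Little of the rise in S135 thus remained after scaling, and the difference between batches was not tested. Col12a1, Col14a1 and Col15a1 had log2 fold changes of 0.34 ± 0.15, 0.30 ± 0.30 and 0.36 ± 0.50 (SE). Col15a1 was at its counting limit, with 1 count in KIRA8 mouse 154 and 6 counts each in KIRA8 mouse 155 and bleomycin control mouse 149.

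The epithelium-depleted genes also mostly held a larger share with bleomycin, with an overlap in S151. They held 0.879% and 0.897% of epithelial counts in bleomycin control mice of S135, against 0.479% to 0.699% in saline mice, and 0.350% to 0.771% in bleomycin control mice of S151, against 0.248% to 0.361% in saline mice. The saline libraries also served to define those genes, by low values in saline epithelium, and that choice favours a larger share with bleomycin. The part of such RNA in the epithelial rise was not tested. DESeq2 called 7 members higher, where it called 7.14% of genes tested higher. In CPM without TMM, 8 members lay without overlap above saline within S135, where 22.5% of genes tested did. Within S151 5 did, where 20.7% did. Leaving out 1 mouse at a time gave 1 to 5 members. Col1a2 passed in 15 of 15 such fits and Col5a1 in 14, but Col5a2 was lost in 6 and Col6a1 in 7. The count was 1 when saline mouse 207 was left out, and 2 when saline mouse 146 or bleomycin control mouse 148 or 225 was.

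**Figure D4:**
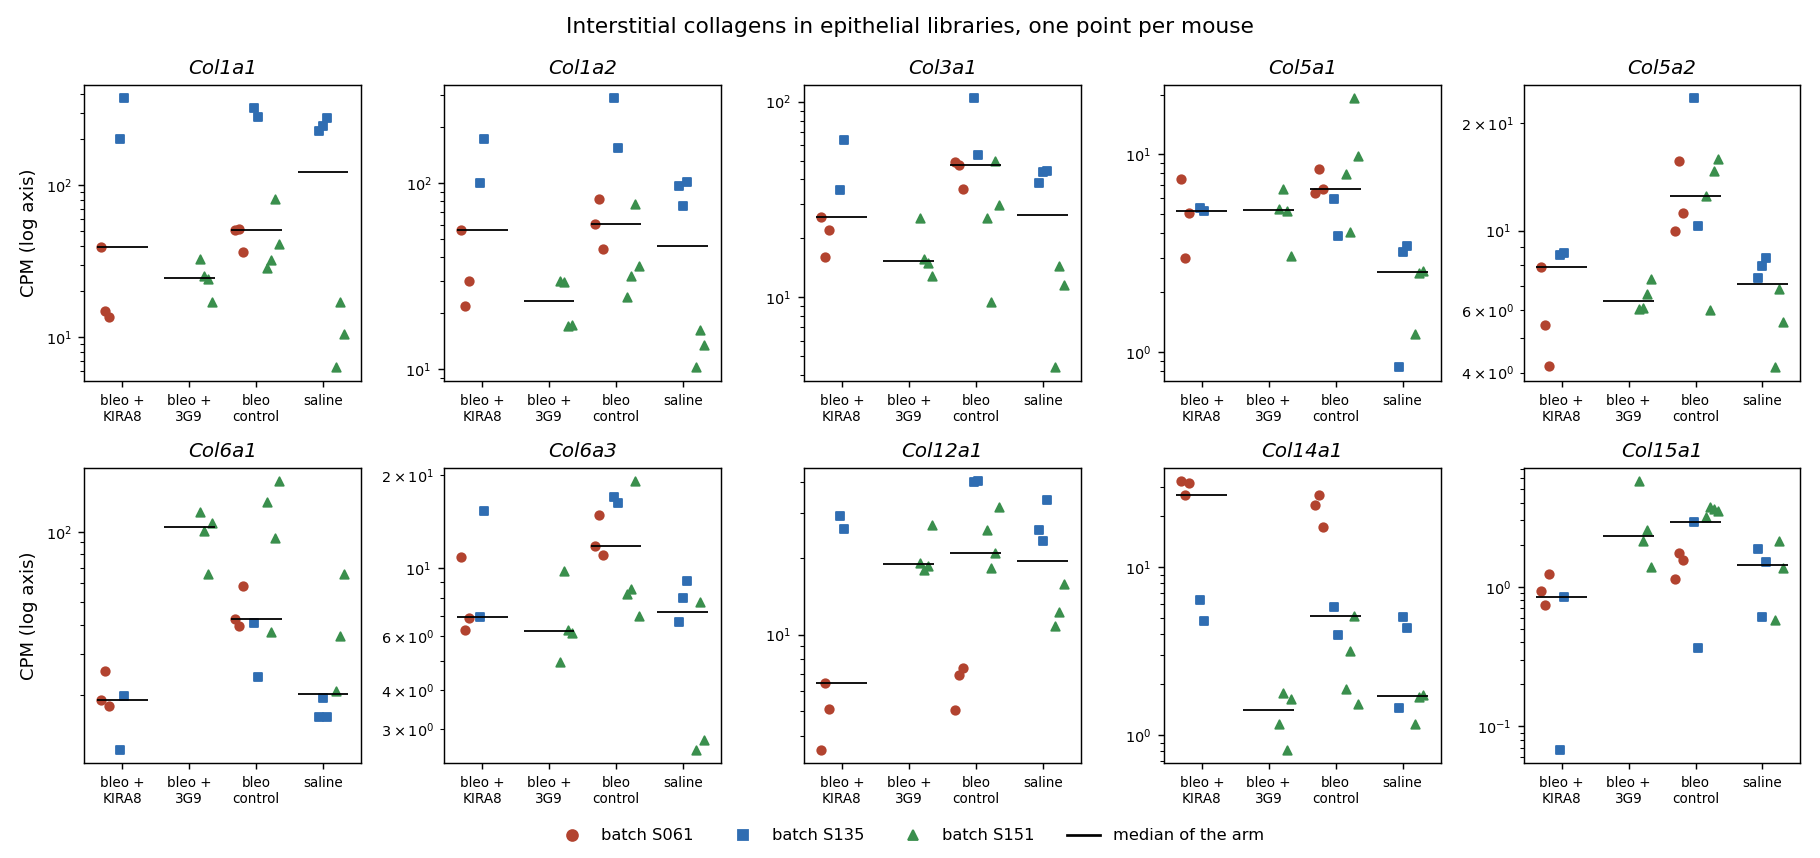
Level of each of the 10 collagens in epithelial libraries, drawn as for whole lung, in CPM on a log axis with 1 point per mouse. Col1a1 lies at 201 to 372 CPM in all S135 mice and at most at 81.7 CPM elsewhere, and Col14a1 is highest in S061, at 17.3 to 32.5 CPM.

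In epithelium, no member passed for KIRA8 against the bleomycin control (edgeR, where 0.174% of genes tested were lower and 0.0868% higher), and the median log2 fold change was -0.62, against 0.02 over all genes tested. Col6a1 came nearest. It stood at 17.9, 19.0 and 25.4 CPM in KIRA8 mice of S061, against 39.5, 42.4 and 58.5 CPM in bleomycin control mice, and at 11.6 and 19.7 CPM in KIRA8 mice of S135, against 23.9 and 40.8 CPM in bleomycin control mice. KIRA8 mice lay lower without overlap of CPM in both batches, as they also did for Col5a2 and Col6a3. Within a single batch 23.3% of genes tested did so in S061 and 23% in S135, and how many did so in both was not counted. CPM is without TMM, and in S061 epithelium TMM factors were 0.831 to 0.973 with KIRA8 and 1.05 to 1.11 in bleomycin control mice. Scaling by them narrows the gap of Col6a1 in S061. Col5a2 and Col6a3 overlap there once scaled, through KIRA8 mouse 20. With a log2 fold change of -0.97 ± 0.26 (SE), Col6a1 had an adjusted p of 0.126 (edgeR), and DESeq2 called it lower, as it did 0.891% of genes tested.

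Col5a2 stood at 4.18, 5.44 and 7.91 CPM in KIRA8 mice of S061, against 9.97, 11.2 and 15.6 CPM in bleomycin control mice, and at 8.56 and 8.65 CPM in KIRA8 mice of S135, against 10.3 and 23.5 CPM in bleomycin control mice. This was a log2 fold change of -0.79 ± 0.24 (SE), whose adjusted p was 0.182 (edgeR). By CPM without TMM, 4 members in each batch lay below without overlap, where 23.3% of genes tested did in S061 and 23% in S135. Col14a1 had the opposite sign, at 0.51 ± 0.32 (SE). Beside it, the epithelium-depleted genes held 7.42% to 10.3% of epithelial counts in KIRA8 mice of S061, against 5.02% to 7.34% in bleomycin control mice, and 0.584% and 0.883% in KIRA8 mice of S135, against 0.879% and 0.897% in bleomycin control mice. The genes limited to S061 held 9.25% to 12.7% in KIRA8 mice of S061, against 6.01% to 8.59% in bleomycin control mice. The part of either set in the values of Col14a1 was not tested.

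For 3G9 against the bleomycin control in epithelium, no gene at all passed in the edgeR fit (0 of 17291, 0%). DESeq2 called 61 (0.353%), none of them a member. The members had a median log2 fold change of -0.61, against 0.01 over all genes tested, and 9 of the 10 were below 0. All 10 overlapped between the arms. Col5a2 had the smallest unadjusted p of the members, at 6.02, 6.07, 6.66 and 7.33 CPM in 3G9 mice, against 5.98, 12.5, 14.7 and 15.9 CPM in bleomycin control mice. Its log2 fold change was -0.83 ± 0.27 (SE, adjusted p 0.959, edgeR). Col6a1 stood at 65.9, 101, 109 and 122 CPM in 3G9 mice, against 37.3, 93.7, 134 and 165 CPM in bleomycin control mice, with a log2 fold change of 0.06 ± 0.27 (SE).

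Set against saline in epithelium, neither KIRA8 (1.06% of genes tested passed in either direction) nor 3G9 (4.24%) had a member past the threshold (edgeR). The members' medians were 0.24 and 0.33 on the log2 scale. The largest value for KIRA8 was that of Col5a1, at 1.21 ± 0.45 (SE, adjusted p 0.2, edgeR), and for 3G9 that of Col6a1, at 0.88 ± 0.29 (SE, adjusted p 0.0963, edgeR). For 3G9 DESeq2 called 1 member higher, where it called 4.59% of genes tested higher.

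Whether a response differed between compartments was tested directly, over all 48 libraries with the mouse as a block. No member passed for bleomycin control against saline (0.343% of 19808 genes tested), for KIRA8 (0.0505%) or for 3G9 (0%) against the bleomycin control (edgeR). The smallest adjusted p was 0.276, for Col5a2, whose response to bleomycin was 0.51 ± 0.18 (SE) smaller on the log2 scale in epithelium than in whole lung, as the difference, epithelium minus whole lung, was -0.51. Col6a1 differed by -0.63 ± 0.24 (SE) for KIRA8 (adjusted p 0.287, edgeR) and by 0.56 ± 0.27 (SE) for 3G9, so its epithelial value was lower than in whole lung with KIRA8 and higher with 3G9, neither past the threshold.

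Members also varied together from mouse to mouse. Over the 24 whole lung libraries, log2 values were taken as deviations from the mean of the mouse's arm and batch, and 9 correlations with Col1a1 were computed, with p from 100000 permutations within arm and batch and Benjamini-Hochberg adjustment over the 9. Col3a1 followed Col1a1 most closely, with r = 0.953 (adjusted permutation p 0.000225) and rho = 0.949 (adjusted permutation p 4.5e-05). Col5a2 had r = 0.944 and rho = 0.916, Col1a2 r = 0.904 and rho = 0.876, and Col5a1 r = 0.871 and rho = 0.910, with adjusted permutation p of at most 0.00063. Within each batch, r for these 4 genes was 0.753 or more, and without the 2 mice farthest from the median of Col1a1 it was 0.849 or more.

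The other members followed Col1a1 less. Col6a1 had r = 0.711 and rho = 0.763 (adjusted permutation p 0.00801 and 0.00475), and 0.604 without the 2 farthest mice. Col6a3 had r = 0.625 and rho = 0.659 (adjusted permutation p 0.0105 and 0.00982), but 0.300 within S151, and Col15a1 had r = 0.566 and rho = 0.643 (adjusted permutation p 0.0357 and 0.018). Without the 2 farthest mice, r was 0.554 for Col6a3 and 0.511 for Col15a1. Col12a1 had r = 0.269 and rho = 0.324 (adjusted permutation p 0.347 and 0.253), with -0.508 within S135 and 0.803 within S061. Col14a1 had r = 0.117 (adjusted permutation p 0.615) and a rho near 0 (adjusted permutation p 0.999), with 0.820 within S135 and -0.372 within S061. The points share a library, so its total and composition enter both values.

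Across all 12402 genes with a mean of at least 5 CPM, the batch-centred pattern over the 24 whole lung libraries that was most like that of Col1a1 belonged to Col3a1 (r = 0.964), followed by Col5a2 (r = 0.964). The most alike genes that are no members were ENSMUSG00000027204 (r = 0.962) and ENSMUSG00000067780 (r = 0.945), which the files do not name. Col5a1 ranked 7 and Col1a2 8, while Col6a1 ranked 185, Col6a3 263 and Col15a1 316. Col12a1 ranked 3154 (r = 0.462) and Col14a1 8098 (r = -0.02). These likenesses include the differences between arms and are a description.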

How the data were processed

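RNA from epithelial and whole lung libraries of 24 mice was analysed from the table that the authors deposited, which holds raw read counts for each Ensembl gene without normalization. Per the submitters' processing notes the authors used STAR 2.5.2b and the GRCm38 build, and the counting program is not stated in the sources at hand. Per the labels' protocols, libraries were made with the QuantSeq Forward kit after anti-HA immunoprecipitation. Columns were matched to samples by mouse number and a compartment letter (E or I, the second read as whole lung), and the whole lung column of 3G9 mouse 218 ends in letters with no stated meaning.

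Counts were tested with the quasi-likelihood test of edgeR 4.0.16 (R 4.3.3, TMM, filterByExpr, robust), with terms for arm and batch over the 24 libraries of a compartment, and p-values were adjusted over all genes tested with Benjamini-Hochberg at 0.05. Compartments were compared with the mouse as a block, since the labels give both libraries the same mouse number. SE is the log2 fold change divided by the root of F, and 95% intervals are 1.96 SE. CPM is the count divided by the library's total, without TMM. Code was tested on simulated data. DESeq2 1.42.0, other scaling, other filters and left-out mice were alternatives. All 10 members passed the count filter in each fit reported and were all named. The members and lists were chosen with earlier results of these data known. Lists of pathway genes and cell type markers could not be applied, because 0 of the 42548 identifiers matched the RefSeq names. Intervals cover the spread between mice. Low counts, such as those of Col15a1 in epithelium, have a counting error of their own.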

Additional observations from a re-analysis of the deposited data

Results flagged for a closer look

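In 9 of the 80 sets of 4 to 9 mice tested (10 genes, 2 compartments, 4 arms), the highest or lowest mouse lay far from the others of its arm by Dixon's criterion on CPM. The arms other than 3G9 span batches, and members vary together in a mouse. No rate expected by chance can therefore be set beside this count. Bleomycin control mouse 148 of S135 was the highest of its arm in 4 of them, at 2184 CPM of Col1a2 in whole lung (nearest 1132), 54.0 CPM of Col14a1 in whole lung (nearest 37.8), 287 CPM of Col1a2 in epithelium (nearest 156) and 104.0 CPM of Col3a1 in epithelium (nearest 53.4). Saline mouse 230 of S151 was the highest in 2, at 364 CPM of Col3a1 (nearest 185) and 62.7 CPM of Col5a2 (nearest 38.1) in whole lung. 3G9 mouse 228 stood apart with the lowest Col1a1 in whole lung, at 360 CPM (nearest 468), and the highest Col12a1 in epithelium, at 26.9 CPM (nearest 19.1). Bleomycin control mouse 208R of S151 had the highest Col5a1 in epithelium, at 19.2 CPM (nearest 9.81).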

How the results depend on the processing

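Over the alternatives other than left-out mice, 463 values of single members kept their direction and side of the threshold, 10 lost a call, 13 gained one and 4 changed sign. DESeq2 made more calls, with 5 members for KIRA8 against bleomycin control in whole lung and 1 in epithelium, 1 for 3G9 against saline in whole lung and 1 in epithelium, and 7 for bleomycin control against saline in epithelium. For bleomycin control against saline in whole lung, Col6a1 was gained with DESeq2 and with sex as a term. The counts over all genes moved both ways. For KIRA8 against bleomycin control edgeR called 102 genes in whole lung, against 701 by DESeq2, 3 without S061 and 22 with only the 2 arms, and in epithelium 45, against 243, 2 and 9. For 3G9 against bleomycin control it called 38 in whole lung, against 267, 19 and 0, and in epithelium 0, against 61, 0 and 0. Against saline, KIRA8 gave 50 genes in whole lung, against 350, 9 and 0, and 184 in epithelium, against 558, 50 and 16. For 3G9 against saline it called 2018 in whole lung, against 3086, 1757 and 834, and 734 in epithelium, against 1227, 536 and 592. For bleomycin control against saline DESeq2 called 2986 in whole lung, against 1962 by edgeR, and 2126 in epithelium, against 1508. With only the 2 arms compared, 2 members passed for bleomycin control against saline in epithelium. Leaving out 1 mouse at a time gave 0 to 4 members for KIRA8 against bleomycin control in whole lung and 0 to 1 in epithelium (1 without bleomycin control mouse 206), 0 to 2 for 3G9 against saline in whole lung (2 without saline mouse 230, 1 without 3G9 mouse 226R or 228) and 1 to 5 for bleomycin control against saline in epithelium. Signs changed only for values near 0 or by batch. Col14a1 for KIRA8 in whole lung was -0.15 without S061 and ran from -0.017 to 0.097 without 1 mouse. For 3G9 in epithelium, Col6a1 was -0.0025 with only the 2 arms and ran from -0.13 to 0.27, Col12a1 from -0.25 to 0.023 and Col15a1 from -0.45 to 0.21 without 1 mouse. Col1a1 between compartments of saline mice was 0.35 in S135 alone, and Col12a1 in bleomycin control mice -0.58 in S061 alone. The causes were not tested. Without the mouse as a replicate block, 9 members passed between compartments in saline and 9 in bleomycin control mice, as with it, and 0 for each difference of responses, where the count over all genes fell to 9, against 68 with the block, for bleomycin. Depth limits Col15a1, with 1 to 6 counts in 3 epithelial libraries.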
